A study of Homo sapiens with 4 samples.

Results

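The alpha-arrestin family comprised ARRDC1, ARRDC2, ARRDC3, ARRDC4, ARRDC5 and TXNIP, 6 of the 18127 genes that a probe set names singly on these arrays. Members were chosen by gene symbol, and each had 1 probe set. The family was chosen for the difference of ARRDC3 between both arrays labelled profound, so those values are a description and carry no test. All 6 genes exceeded the median of the table (3.08 log2 units) in at least 1 array and so belonged to the 13077 genes tested, although ARRDC5 did so by little.

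The arrays were made from MV4-11, an established cell line from a human acute myeloid leukaemia of monocytic character. Every culture was transduced with 1 short hairpin RNA and then exposed to 3 µM doxycycline for 24 h, the control included. The hairpins were RUNX1 profound 1 and RUNX1 profound 2, which the labels call a profound knockdown, RUNX1 moderate, called a moderate one, and a control hairpin against luciferase. RNA of each was hybridised to 1 whole-transcript array, so no difference has a replicate check, no p-value is given, and precision is limited by having 1 array for each. Whether the 4 cultures were handled at the same time is not given in the sources used here. The description fields of both arrays labelled profound name RUNX2 and RUNX3, against their titles and genotypes. RUNX1, a transcription factor of blood cells, shares its probe set with the locus LOC100506403. That probe set read 4.07 and 4.04 log2 units in the arrays labelled profound 1 and profound 2, 4.33 in that labelled moderate and 4.27 in control, a range of 0.28 that falls short of 1.5-fold, so the knockdown the labels name is not borne out by this probe set and every direction below is one between labels. Of the 8 measured myeloid markers, which include the leukocyte antigen PTPRC, the receptor kinase FLT3 and lysozyme (LYZ), all exceeded the table median in every array, whereas 5 of 16 measured markers of B, T, erythroid, epithelial, fibroblast and fat cells did (CD79A, CD8A, KRT8, KRT18 and COL1A1).

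Alpha-arrestins are adaptor proteins with an arrestin fold. Most carry short proline-rich motifs that bind NEDD4-type ubiquitin ligases and bring them to receptors and transporters at the cell surface, which are then taken in and sorted. TXNIP also binds thioredoxin and lowers glucose uptake, and TXNIP and ARRDC4 are known targets of the glucose-sensing transcription factor MondoA (MLXIP) with its partner MLX. TXNIP transcription is in addition known to respond to FOXO factors, which are active where PI3K and AKT signalling is low.

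The promoters of the 3 members that stood furthest from control are shown first, because they are the regulatory sequence nearest to the genes that the results turn on. RefSeq (GRCh38.p14) lists promoter windows for 5 of the 6 members, 8 in all, each with 250 bases before and 50 after an annotated start. The sequences below are the 250 bases before the start, 5′ to 3′ on the gene's own strand. They are ARRDC3 start 1 (chr5:91383318-91383567, minus strand), ARRDC3 start 2 (chr5:91380098-91380347, minus strand, which lies inside the span of the gene), ARRDC4 (chr15:97960453-97960702, plus strand) and TXNIP start 1 (chr1:145996580-145996829, minus strand). Capitals mark matches, on either strand, to 5 motifs: the E-box CACGTG, a RUNX motif TGTGGT, the FOXO motifs TGTTTAC and TGTTTGC, and the CCAAT box CCAAT. No match overlapped another in these windows.
ARRDC3 start 1: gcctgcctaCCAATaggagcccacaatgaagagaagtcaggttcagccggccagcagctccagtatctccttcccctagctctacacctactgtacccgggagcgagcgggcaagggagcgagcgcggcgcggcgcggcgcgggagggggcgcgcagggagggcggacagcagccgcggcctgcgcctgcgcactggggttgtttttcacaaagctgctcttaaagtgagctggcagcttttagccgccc
ARRDC3 start 2: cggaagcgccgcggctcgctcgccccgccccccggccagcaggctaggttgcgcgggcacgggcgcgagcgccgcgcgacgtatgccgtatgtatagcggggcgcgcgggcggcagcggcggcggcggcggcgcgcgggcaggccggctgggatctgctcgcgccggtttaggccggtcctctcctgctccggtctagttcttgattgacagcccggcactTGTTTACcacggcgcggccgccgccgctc
ARRDC4: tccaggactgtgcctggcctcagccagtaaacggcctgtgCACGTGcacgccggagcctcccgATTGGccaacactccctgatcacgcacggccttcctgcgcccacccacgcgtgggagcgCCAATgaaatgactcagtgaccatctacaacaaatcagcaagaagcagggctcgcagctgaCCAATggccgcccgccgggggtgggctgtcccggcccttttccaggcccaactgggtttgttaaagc
TXNIP start 1: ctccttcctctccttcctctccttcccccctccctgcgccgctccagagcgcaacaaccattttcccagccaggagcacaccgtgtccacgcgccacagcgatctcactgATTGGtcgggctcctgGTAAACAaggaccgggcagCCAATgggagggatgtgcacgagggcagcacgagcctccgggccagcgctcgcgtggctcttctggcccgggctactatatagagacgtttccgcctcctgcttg

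ARRDC3 start 2 held the FOXO motif TGTTTAC, whose first base lay at -29 from the start, and TXNIP start 1 held it on the other strand at -124. Of all 35116 promoter windows of this length, 3.42% hold that motif. ARRDC4 was the member with the E-box letters CACGTG, at -210, a motif found in 7.26% of windows. Only these exact letters were searched for, so E-boxes of other letters were not counted in any window. TXNIP start 1 had 2 CCAAT boxes and ARRDC4 had 3, and 34.6% of windows hold at least 1. The motif TGTGGT matched in none of the 8 windows of the family (13.1% of all windows hold it), and neither did TGTTTGC (3.89%). A match is a description of the letters and not a bound site, and its absence says only that these letters are not in these windows.

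**Figure D1:**
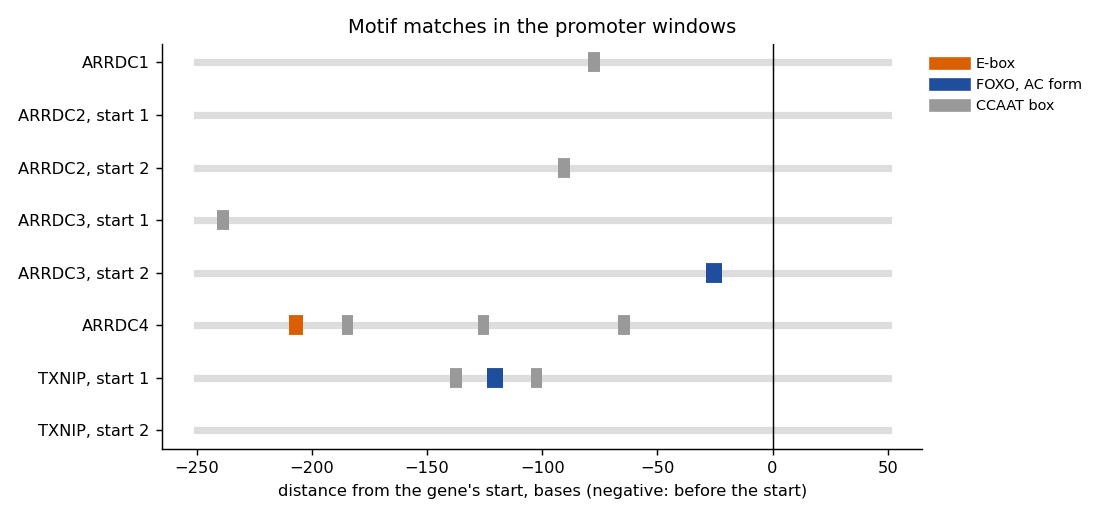
Motif matches in the 8 RefSeq promoter windows of ARRDC1, ARRDC2, ARRDC3, ARRDC4 and TXNIP, by distance in bases from the annotated start. Grey bars are the windows and coloured blocks the matches to the E-box, the FOXO motif TGTTTAC and the CCAAT box; the FOXO motif lies at -29 in ARRDC3 start 2 and at -124 in TXNIP start 1.

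ARRDC3, an adaptor reported to act in the ubiquitination and sorting of integrin ITGB4, was the member that differed most between arrays. Its signal was 5.38 log2 units in the array labelled profound 1 and 3.78 in that labelled profound 2, against 4.97 in the array labelled moderate and 4.46 in control. The arrays labelled profound 1 and moderate were thus above control and that labelled profound 2 below it. The difference from control was 0.92 log2 units (1.89-fold higher) in profound 1 and -0.68 (1.60-fold lower) in profound 2. In bulk RNA, fewer cells with the transcript and less transcript per cell cannot be told apart. As a yardstick, the spread of the same pair of arrays was computed over genes of similar level, as a robust SD from the median absolute deviation. It was 0.279 for profound 1 and 0.218 for profound 2, and it holds noise and real differences together. In the order profound 1, moderate, control and profound 2, each neighbouring pair differed by more than its yardstick.

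The array labelled moderate, which did not enter the choice of the family, differed from control by 0.51 in ARRDC3 (1.42-fold higher), where its yardstick was 0.202. Of the tested genes, 1.67% were at least as far above control in that array. Against the array labelled moderate instead of control, ARRDC3 was 0.41 higher in profound 1 and 1.19 log2 units lower in profound 2 (-1.19). Of the tested genes, 0.0612% were at least as far below the array labelled moderate in profound 2. The levels in profound 1 and profound 2 chose the family, so both differences and this share are a description and carry no test. Between both arrays labelled profound the difference was 1.60 log2 units, which is the value that chose the family. GALR2 (1.60) stood just above ARRDC3 and OTOA (1.47) just below it among genes higher in profound 1.

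ARRDC3-AS1, an antisense long non-coding RNA gene that overlaps ARRDC3, has a probe set of its own. It read 3.78 in profound 1 and 3.29 in profound 2, against 3.08 in the array labelled moderate and 3.21 in control. It was 0.57 above control in profound 1 (yardstick 0.272) and 0.08 above it in profound 2 (yardstick 0.259). ARRDC3-AS1 therefore had its highest level in the same array as ARRDC3, but it was not lower than control in profound 2. Its levels lie near the table median, where RMA understates differences.

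TXNIP was the 1 member above control by more than its yardstick in both arrays labelled profound. It read 8.63 in profound 1 and 8.45 in profound 2, against 7.97 in the array labelled moderate and 7.89 in control. Both profound levels were above the other 2 arrays. The differences from control were 0.75 log2 units (1.68-fold, yardstick 0.221) and 0.56 (1.48-fold, yardstick 0.126). Of the tested genes 1.13% were at least as far above control in profound 1, and 1.46% in profound 2. The array labelled moderate differed from control by 0.09, within its yardstick of 0.108, and profound 1 from profound 2 by 0.19, within 0.21. Set against the array labelled moderate, TXNIP was higher by 0.66 in profound 1 and by 0.48 in profound 2, so its position does not rest on the control array alone.

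ARRDC4, an adaptor whose gene is induced by glucose as TXNIP is, read 6.05 in profound 1 and 5.67 in profound 2, against 5.67 in the array labelled moderate and 5.48 in control. The level in profound 1 stood above the other 3. It was 0.57 above control, or 1.48-fold, just short of 1.5-fold, and 3.02% of tested genes were at least as far above control there. The difference was 0.18 in profound 2 (yardstick 0.182) and 0.19 in the array labelled moderate (yardstick 0.158), so these 2 arrays did not separate from each other.

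ARRDC1, which binds TSG101 and drives the budding of small vesicles from the plasma membrane, varied little. It read 6.24 and 6.27 in profound 1 and profound 2, 6.21 in the array labelled moderate and 6.08 in control. The largest difference from control, 0.19 in profound 2, barely exceeded its yardstick of 0.182. Its overlapping antisense gene ARRDC1-AS1 read 5.22 in profound 1, 5.39 in profound 2 and 5.27 in the array labelled moderate, each below the 5.65 of control. No difference of ARRDC1-AS1 reached 1.5-fold (-0.43, -0.26 and -0.38 log2 units).

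ARRDC2 read between 5.55 and 5.68 in the 4 arrays, and no pair of arrays differed by more than its yardstick. ARRDC5, which in the mouse is needed for normal sperm formation, read 3.07 in profound 1, below the table median, 3.33 in profound 2, 3.11 in the array labelled moderate and 3.25 in control. No pair differed in ARRDC5 by more than its yardstick, and at this level a true difference would be understated.

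**Figure D2:**
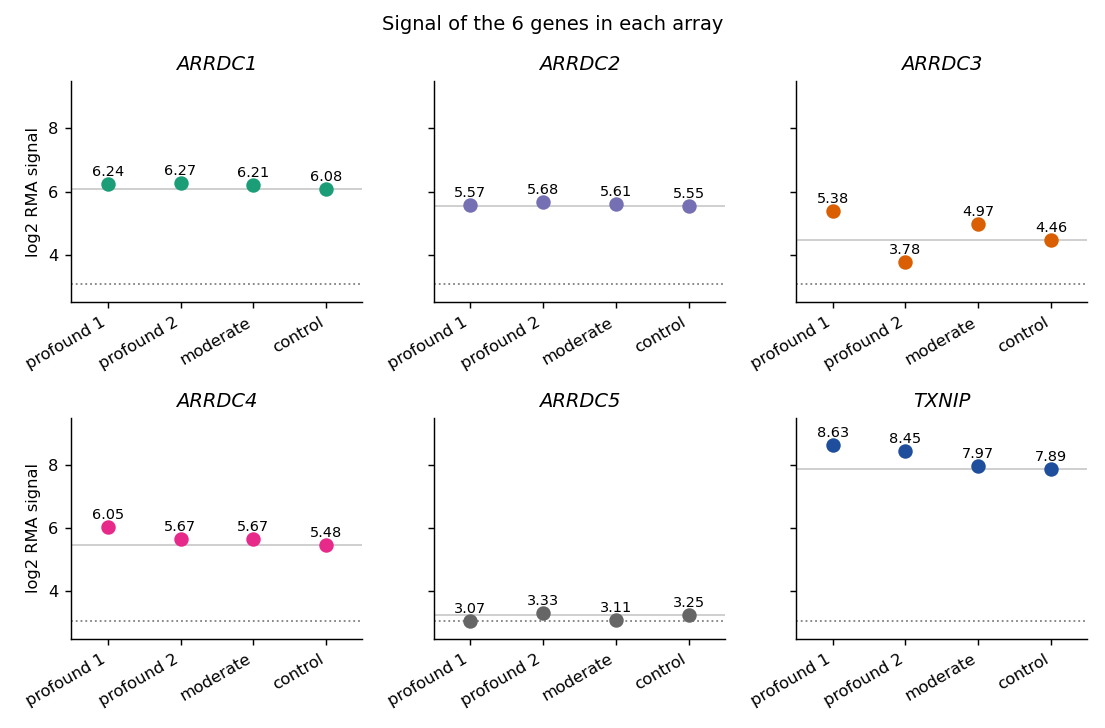
Signal of the 6 genes in the 4 arrays, in log2 RMA units, with 1 point per array. The grey line is the control level and the dotted line the table median (3.08); ARRDC3 lies at 5.38 in profound 1 and 3.78 in profound 2 against 4.46 in control, whereas TXNIP lies above control in both.

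At 1.5-fold, 2 of 6 members were higher in profound 1 than in control, ARRDC3 and TXNIP, and 0 were lower. Of all tested genes 2.76% were higher and 4.05% lower at that size in this pair. In profound 2, 0 of 6 were higher and 1 was lower, ARRDC3, where 1.26% of tested genes were higher and 1.15% lower. In the array labelled moderate 0 of 6 reached 1.5-fold in either direction, where 0.956% of tested genes were higher and 0.505% lower than control. Set against the array labelled moderate, profound 1 had 1 of 6 higher (TXNIP) and 0 lower, beside 1.77% and 3.51% of tested genes. Profound 2 had 0 of 6 higher and 1 lower (ARRDC3) than that array, beside 1.16% and 1.72%. Between profound 1 and profound 2, 1 of 6 was higher, ARRDC3, which was chosen for it, and 0 were lower, where 2.29% of tested genes were higher and 3.05% lower. The median difference of the 6 from control was 0.36 in profound 1, 0.16 in profound 2 and 0.11 in the array labelled moderate, where the medians of all tested genes were -0.002, -0.002 and 0.007. In each of these 3 comparisons 5 of 6 members lay above control. The exception was ARRDC5 in profound 1 and in the array labelled moderate, and ARRDC3 in profound 2. These comparisons share the control array, so their directions are not independent of each other. The levels that chose the family enter every ARRDC3 call above. They also enter the medians in profound 1 and profound 2, so these too are a description.

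**Figure D3:**
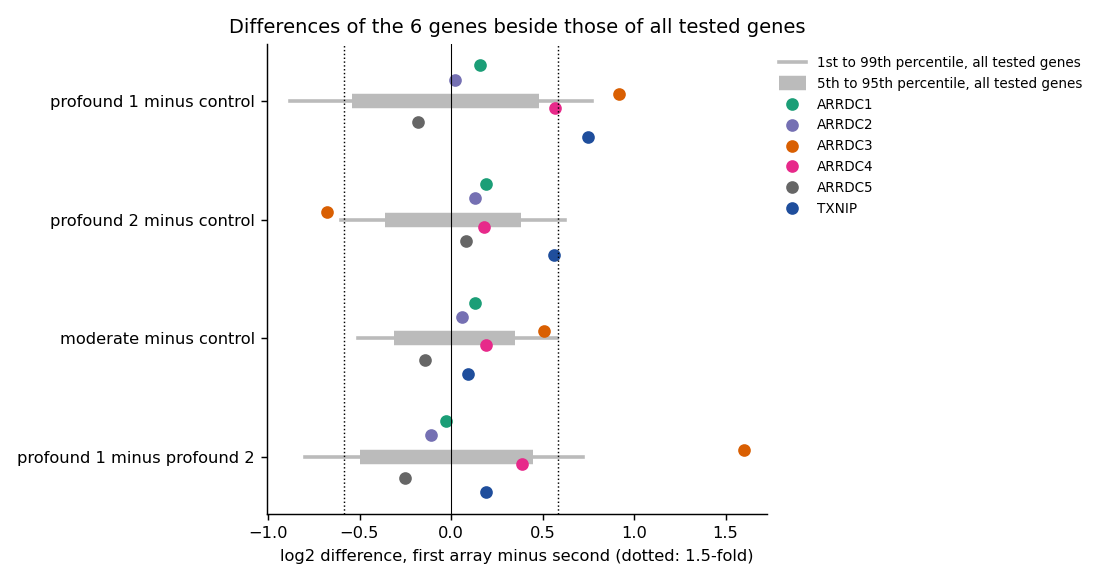
Log2 differences of the 6 genes in 4 pairs of arrays (points) beside the range of all 13077 tested genes (grey bars: 5th to 95th and 1st to 99th percentile; dotted lines: 1.5-fold). ARRDC3 lies beyond the 1st or 99th percentile in 3 of the 4 pairs, at 0.92, -0.68 and 1.60, and TXNIP comes close to the 99th in profound 1 and profound 2. The levels that chose the family enter each of these ARRDC3 values.

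ARRDC3 lay above control in profound 1 and below it in profound 2, and the other genes placed in the same way were counted. Because the values that chose the family enter this count, it is a description. Of 13077 genes, 3 (0.0229%) were at least 1.5-fold higher than control in profound 1 and at least 1.5-fold lower in profound 2. They were ARRDC3, SLC25A23 and SLC7A11. The reverse arrangement had 0 genes, while 45 genes were higher in both and 45 lower in both. SLC25A23, a mitochondrial ATP and phosphate carrier, read 7.08 and 5.72 in profound 1 and profound 2, 6.95 in the array labelled moderate and 6.42 in control. SLC7A11, the cystine importer that feeds glutathione synthesis, read 6.82 and 5.48 in profound 1 and profound 2, 6.44 in the array labelled moderate and 6.09 in control. Both followed the same order of arrays as ARRDC3. With the array labelled moderate as the comparison the count was 1, ZCWPW1, and ARRDC3 was not counted because it was 0.41 above that array in profound 1.

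Likeness of pattern was measured by the Euclidean distance between the 3 differences from control (profound 1, profound 2 and moderate), over 4 arrays. The 5 genes nearest to ARRDC3 were SLC25A23 (0.258 log2 units), SLC7A11 (0.268), TMEM91 (0.43), TENT5C, a non-canonical poly(A) polymerase gene (0.465), and ARHGAP25, a GTPase-activating protein gene of leukocytes (0.474). These 5 were all the tested genes within 0.5 of it (0.0382%). TXNIP had 598 genes within 0.5 (4.57%), of which CDRT15P2, XRRA1 and STH were the nearest, at 0.053, 0.067 and 0.067. The genes nearest to ARRDC4 were AMT (0.023), ARSD (0.047) and NDUFB5 (0.047). ARRDC2 lay near 0 in all 3 differences, and DTWD2 (0.009), OR51S1 (0.012) and DCAF7 (0.015) stood beside it. No shared function follows from such a distance.

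**Figure D4:**
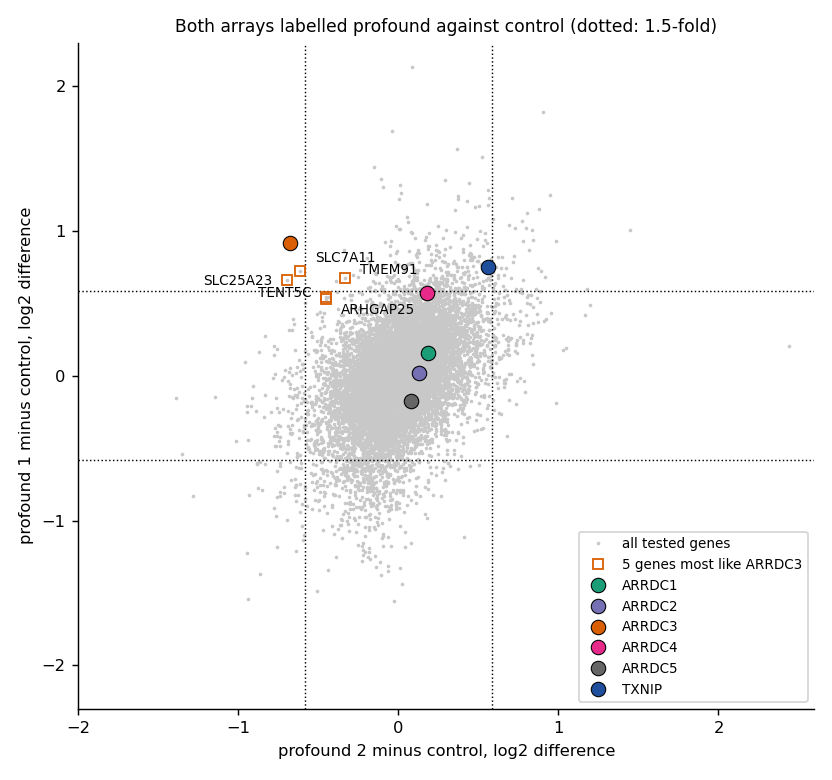
Log2 difference from control in profound 1 (vertical) and profound 2 (horizontal) of 13077 tested genes (grey), the 6 family members (filled circles) and the 5 genes most like ARRDC3 (open squares). Both axes share the control array; dotted lines mark 1.5-fold, and ARRDC3, SLC25A23 and SLC7A11 are the 3 genes in the upper left corner region, with TXNIP at 0.75 and 0.56 on the right.

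The genes that work with the family were then described by lists, beginning with the upstream factors of TXNIP and ARRDC4. Of 12 tested genes of the MondoA, MLX and MAX network, 0 reached 1.5-fold in either direction in any of the 6 pairs of arrays. Per pair and direction, 0.505% to 4.05% of all tested genes did, so 0 of 12 says little about these genes. Their median difference from control was 0.15 in profound 1 and 0.21 in profound 2, against -0.01 in the array labelled moderate. MLXIP itself, which encodes MondoA, read 6.98 and 6.88 in profound 1 and profound 2, 6.77 in the array labelled moderate and 6.65 in control. MXI1, a MAX-binding repressor, differed from control by 0.36 and 0.27 in profound 1 and profound 2. MLX differed from control by -0.12 and 0.11 in the same arrays.

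Of 23 tested genes of the list of FOXO factors and their targets, 3 were at least 1.5-fold higher than control in profound 1 and 0 lower, where 2.76% of all tested genes were higher and 4.05% lower. In profound 2, 0 of 23 passed, where 1.26% of all tested genes were higher and 1.15% lower. The list's medians were 0.10 in profound 1 and 0.04 in profound 2. BCL6, a transcriptional repressor, read 5.52 in profound 1 and 4.30 in profound 2, against 4.86 in the array labelled moderate and 4.30 in control. SESN3, a stress-inducible inhibitor of mTORC1 signalling, read 5.65 in profound 1 and 5.20 in profound 2, with 4.81 in the array labelled moderate and 4.71 in control. FBXO32, a ubiquitin ligase subunit, read 5.35 in profound 1, 4.91 in profound 2 and 4.96 in the array labelled moderate, each above the 4.37 of control. These 3 genes are named because they passed that size in profound 1. FOXO3 read 4.49 and 4.19 in profound 1 and profound 2, with 3.80 in the array labelled moderate and 4.36 in control. It was 0.69 above the array labelled moderate in profound 1.

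Among 17 tested genes of the thioredoxin system and TXNIP partners, 0 reached 1.5-fold in profound 1. There 2.76% of all tested genes were higher and 4.05% lower than control. In profound 2, 1 of 17 was higher, where 1.26% of all tested genes were higher and 1.15% lower. That gene was DDIT4, a stress-induced mTORC1 inhibitor and TXNIP partner, at 4.90 and 5.09 in profound 1 and profound 2, 4.52 in the array labelled moderate and 4.40 in control. Its difference from control was 0.51 in profound 1 and 0.70 in profound 2. Thioredoxin (TXN), the redox protein that TXNIP binds, read 10.75 and 10.55 in profound 1 and profound 2, 10.68 in the array labelled moderate and 10.67 in control. The list's median was 0.09 in profound 1 and 0.02 in profound 2.

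Of 24 tested genes of glucose uptake and glycolysis, 1 was at least 1.5-fold higher than control in profound 1, 2 were in profound 2, and 0 were lower in either. At that size 2.76% of all tested genes were higher and 4.05% lower in profound 1, and 1.26% and 1.15% in profound 2. PFKFB2, a regulator of glycolytic flux, read 5.68 in profound 1 and 5.00 in profound 2, against 5.20 in the array labelled moderate and 5.02 in control. PFKFB3, its paralogue, read 5.28 in profound 1 and 5.33 in profound 2, above both the array labelled moderate (4.81) and control (4.70). SLC2A5, a fructose transporter, had its highest level in profound 2 (4.76) and read 4.24 in profound 1, 3.63 in the array labelled moderate and 3.84 in control. SLC2A1, the glucose transporter that TXNIP removes from the cell surface, read 7.80 in profound 1 and 8.13 in profound 2, against 8.16 in the array labelled moderate and 8.26 in control, a difference of -0.46 in profound 1. The medians of this list were -0.05 and 0.01.

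The partners of trafficking were counted in the same way. Per pair and direction, 0.505% to 4.05% of all tested genes reached 1.5-fold, so counts of 0 in lists this small say little. Of 7 tested NEDD4-family ubiquitin ligases 0 reached 1.5-fold in any pair. NEDD4 was 0.45 log2 units below control in profound 1 (-0.45) and ITCH 0.33 above it. Of 6 tested arrestin-fold relatives 0 reached 1.5-fold in any pair, with ARRB1, the beta-arrestin gene, at -0.36 and RGP1 at 0.28 in profound 1. Among 14 tested cargo and vesicle genes, 1 was at least 1.5-fold higher than control in profound 1, the integrin gene ITGB4 (3.64 and 3.13 in profound 1 and profound 2, with 3.29 in the array labelled moderate and 3.04 in control). At that size 2.76% of all tested genes were higher than control in profound 1. The control level of ITGB4 lies below the table median. SLC2A4, a glucose transporter of muscle and fat, was lower in profound 1 than in the array labelled moderate (3.05 against 3.78). It read 3.59 in profound 2 and 3.42 in control, and its level in profound 1 lies below the table median. The thrombin receptor gene F2R, outside the rule for named genes and named after its value was seen, was the 1 gene of this list at least 1.5-fold lower than control in the array labelled moderate (-0.60).

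**Figure D5:**
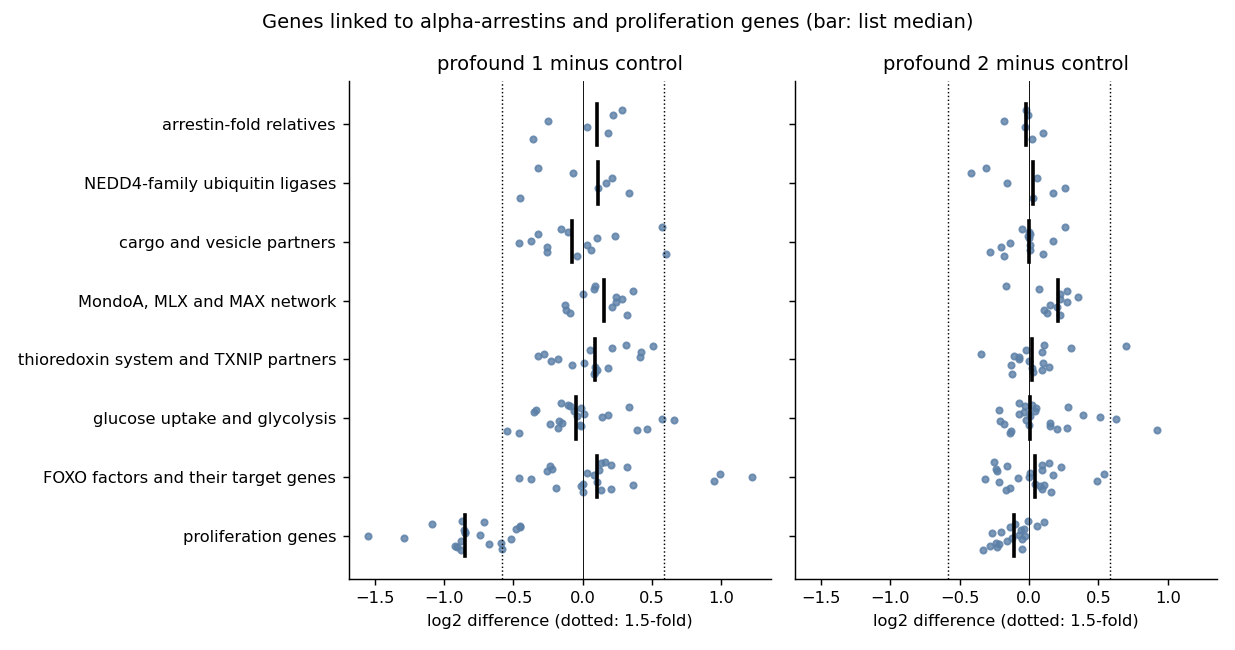
Log2 differences from control in profound 1 (left) and profound 2 (right) of the tested genes of 8 lists, with 1 point per gene, a black bar at the list median and dotted lines at 1.5-fold. Proliferation genes lie below control in profound 1 (median -0.85), and BCL6, SESN3 and FBXO32 are the 3 points beyond 1.5-fold in the FOXO list there.

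The proliferation genes were lowest in profound 1, the array in which ARRDC3, TXNIP and ARRDC4 were highest. Of 20, 15 were at least 1.5-fold lower than control in profound 1 (median -0.85, range -1.55 to -0.45). At that size 0 were lower in profound 2 (median -0.11, range -0.33 to 0.11). In the array labelled moderate 0 were as well (median -0.12, range -0.52 to 0.05). Below control by any amount were 20 in profound 1, 18 in profound 2 and 19 in the array labelled moderate. Of all tested genes 4.05% were lower at that size in profound 1, 1.15% in profound 2 and 0.505% in the array labelled moderate. TXNIP was also 0.56 above control in profound 2, and profound 1 exceeded profound 2 by 0.19, within its yardstick of 0.21. ARRDC3 was also 0.51 above control in the array labelled moderate. The part of the proliferation shift in the levels of ARRDC3, TXNIP and ARRDC4 was not tested.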

How the data were processed

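Gene expression was measured on 4 whole-transcript arrays, 1 per hairpin. The deposited table holds log2 signals of 53617 probe sets. Per the submitters' processing notes, the authors used RMA, Transcriptome Analysis Console 1.0 and Affymetrix Expression Console 1.3.1. Neither settings nor a genome build were found in the labels. RMA equalises the distributions of the arrays (medians 3.067 to 3.085), which hides any shift in total RNA per cell, and it compresses dim probe sets. Groups came from the genotype field, and 0 columns of values were left unused.

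Gene names came from the platform annotation (23871 probe sets with 1 symbol, 1842 with several, 27904 with none listed), updated through RefSeq symbols, Entrez IDs or unambiguous synonyms. Where a gene had more than 1 probe set, that of highest mean signal was taken. Tested genes exceeded the table median in at least 1 array. Small RNA, predicted, open-reading-frame, antisense, long intergenic and immune receptor segment symbols were left out, which left 13077 genes, of which 12395 are protein coding. Differences are log2 differences between single arrays. The yardstick is the robust SD (1.4826 times the median absolute deviation) of the same pair of arrays within 6 classes of mean level. The size rule was 1.5-fold. It was run on simulated data with planted changes larger than 1.5-fold and noise set from the array labelled moderate minus control. This does not show how the rule performs on changes near 1.5-fold or in pairs of wider spread. Alternatives were cyclic loess (limma 3.58.1, R 4.3.3), centring, other filters, other probe set rules, protein-coding genes and the array labelled moderate as the comparison. Size rules of 2-fold and of 1.25-fold, each in either direction, were also tried.

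Named genes were the 6 members, and from each of 8 lists those past 1.5-fold in a pair with an array labelled profound, at most 4, or failing that the 2 furthest from control in profound 1. For 4 members, the 3 or 5 genes of nearest pattern were added. Proliferation genes are given as counts and ranges, and RUNX1, TXN, MLX, MLXIP, FOXO3, SLC2A1 and marker genes were named for their roles. The members and lists were chosen with earlier results of these data known. Promoter windows came from RefSeq (GRCh38.p14), and protein sequences were not used here.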

Additional observations from a re-analysis of the deposited data

Results flagged for a closer look

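ARRDC3 moved in opposite directions in both arrays labelled profound. It was 0.92 log2 units above control in profound 1 and lower than control in profound 2 (-0.68). This opposition between 2 hairpins whose genotype labels both name RUNX1 drew attention to it. With 1 array per hairpin the difference between them was not tested. The family was chosen for that same difference, so the flag is a description and adds nothing to it.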

How the results depend on the processing

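No paired analysis was possible because each group has 1 array. Leaving out a replicate could not be tried for the same reason. Over 24 differences of the 6 members, cyclic loess moved a value by at most 0.03 log2 units and centring by at most 0.04, with 0 changes of sign. The mean of all probe sets moved them by 0.0, as it must where each member has 1 probe set, so it checks nothing here. With the array labelled moderate as the comparison, ARRDC3 was at 0.41 in profound 1 and -1.19 in profound 2, and ARRDC4 at 0.38 and -0.01. The members past 1.5-fold then numbered 1 in profound 1 (TXNIP), against 2 with control, and the associated genes of all lists numbered 1 in profound 2. At 2-fold the members counted 0 in profound 1 and 0 in profound 2. At a 25% difference they counted 1 for the moderate hairpin, 2 in profound 2, and 2 between profound 1 and profound 2. The associated genes are the tested genes of all 8 lists, the 20 proliferation genes included. Besides BCL6, those past 2-fold in profound 1, or between profound 1 and profound 2, were proliferation genes. Their counts, and those of all 13077 tested genes, are raw counts and were not compared as shares. At 2-fold the associated genes counted 4 in profound 1, 0 in profound 2 and 0 for the moderate hairpin. Between profound 1 and profound 2 they counted 3. At a 25% difference they counted 48, 12, 9 and 40 in the same order. All tested genes counted 105, 12, 12 and 69 at 2-fold and 3282, 1840, 1420 and 3096 at a 25% difference. Cyclic loess left 1 associated gene in the array labelled moderate. The genes higher in profound 1 and lower in profound 2 than control, a count chosen after seeing the data, numbered 3 under cyclic loess, centring, both filters and protein-coding genes, 0 at 2-fold, 33 at a 25% difference and 1 with the array labelled moderate as the comparison. Dim members, ARRDC5 above all, are limited by signal over background.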
